A study of Mus musculus with 61 samples.

Results

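The livers of Cast and PWK mice were compared by RNA sequencing. Both are wild-derived inbred strains, among the 8 from which the Diversity Outbred mice descend, and they represent different subspecies of the house mouse, Mus musculus castaneus (Cast) and Mus musculus musculus (PWK). The comparison took every library whose column name starts with Cast, which gave 7, and every library whose column name starts with PWK, which gave 8, that is 15 of the 60 libraries analysed from the 8 strains. All animals had the same high-fat, high-sugar diet, labelled 45% fat, so no library shows either strain on another diet. The libraries were made from polyadenylated RNA of whole frozen liver. The labels give no sex, age, collection time or number of animals for a library, and nothing in them says that the libraries of a strain came from separate animals, so the p-values below measure the spread between these libraries. Of 12 hepatocyte markers, all 12 were expressed in both strains; Hnf4a, which encodes a hepatocyte transcription factor, averaged 682 CPM in Cast and 694 CPM in PWK. CPM, the read count of a gene scaled to sequencing depth, was computed on library totals scaled by the TMM method.

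The liver makes cholesterol and fatty acids when sterol and insulin signals call for them, and exports them in lipoproteins. The sterol-responsive transcription factor SREBP-2 drives the genes of cholesterol synthesis and uptake, SREBP-1c drives fatty acid synthesis, and the oxysterol receptor LXR drives sterol export. Liver macrophages, lymphocytes and endothelial cells, as well as hepatocytes, express interferon-stimulated genes, which encode antiviral and cell-autonomous defence proteins. In whole tissue, fewer cells of a type and less RNA per cell cannot be told apart.

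Library totals ranged from 26711284 to 38180366 counts in Cast and from 25145691 to 36590101 counts in PWK. The first principal component of log2 CPM held 46.7% of the variance and separated all Cast from all PWK libraries; the second held 15.3% and was positive in the libraries with high Xist and negative in the others. Xist, the RNA made from the inactive X chromosome, was at 809 to 992 CPM in 3 Cast libraries and 852 to 1292 CPM in 4 PWK libraries and at no more than 3.94 CPM in the other 4 Cast and 8.9 CPM in the other 4 PWK libraries. The third component held 10.6% and had its highest scores in Cast 5 and Cast 6 (63.1 and 61.0), against 17.2 in Cast 1 and -54.2 to -36.0 in the other 4 Cast libraries. Cast libraries were the more variable: the SD of log2 CPM within a strain had a median over genes of 0.435 in Cast and 0.266 in PWK. Counts without Cast 5 and Cast 6, a setting chosen after the data were seen, are given beside results that they moved.

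Of 16165 genes tested, 8068 (49.9%) differed between the strains at an adjusted p below 0.05 (edgeR quasi-likelihood test over all 60 libraries, Benjamini-Hochberg adjustment over all genes). Of all genes tested, 25.9% were higher and 24.0% were lower in Cast, and the median log2 fold change of Cast over PWK was 0.01. The counts of each gene list below are to be read beside these shares. The called genes had a median absolute log2 fold change of 0.74, with quartiles of 0.41 and 1.43. Called differences of at least 1 on the log2 scale numbered 3067 (19.0% of genes tested), of which 1302 (8.05%) were higher and 1765 (10.9%) lower in Cast. The Cast and PWK libraries did not overlap for 14.0% of genes tested; Cast was above PWK in 6.2% and below in 7.76%. Without Cast 5 and Cast 6, 6952 genes were called, 3509 higher and 3443 lower. The called share ranged from 44.9% of genes on the X chromosome to 53.6% on chromosome 8 among the nuclear chromosomes other than Y.

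Against the range spanned by the means of the other 6 strains, the 2 wild-derived strains did not depart equally often from it. Among the called genes, only the Cast mean lay outside that range for 39.3%, only the PWK mean for 19.9%, both on opposite sides for 13%, both on the same side for 12.2%, and neither for 15.6%. Over all genes tested the same shares were 27.8%, 15%, 6.69%, 19.3% and 31.1%. The calls themselves were used to form the first set of shares, so they are a description with no test.

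Protein-coding genes with at most 3 reads in one strain, some with larger fitted fold changes, are described apart from the rest. The 24 genes with the largest separate differences among the others were taken with predicted genes, olfactory receptors and Y-linked genes left out. Their mean in the lower strain was at most 1.91 CPM (Pus7l). Their mean in the higher strain was at least 5.17 CPM (Spata22), near the 5 CPM that the choice required. These 24 were taken only from genes whose Cast and PWK libraries do not overlap, so their separation follows from the choice. Eno1b (chr18:48045335-48048378, GRCm38), a retrogene related to the glycolytic enzyme gene Eno1, ranged from 113 to 176 CPM with a median of 160.2 in Cast, against 0 to 0.466 CPM with a median of 0.126 in PWK. Reads of near-identical copies can be split between them by the counting, so the level of Eno1b is uncertain. Eno1 had medians of 529.7 CPM in Cast and 370.4 CPM in PWK. The sum of Eno1 and Eno1b had medians of 689.9 CPM in Cast and 371 CPM in PWK. Tas1r1 (chr4:152027914-152038568), which encodes a subunit of the umami taste receptor, ranged from 24.7 to 73.3 CPM (median 32) in Cast and from 0.0358 to 0.17 CPM (median 0.138) in PWK. In both genes every Cast library lay above every PWK library, with log2 fold changes of 9.77 ± 0.61 (SE, adjusted p = 2.96e-20) for Eno1b and 8.36 ± 0.41 (adjusted p = 1.59e-24) for Tas1r1. Each standard error (SE) was computed as the absolute log2 fold change over the root of its F value. For genes with libraries at 0, the size of a fitted fold change depends on the prior count and is no bound.

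The 12 higher genes of this set also included a conjugating enzyme, an antimicrobial peptide and a scavenger receptor. Ugt1a10, a UDP-glucuronosyltransferase, ranged from 15.4 to 139.6 CPM in Cast, with a median of 37.9, and from 0 to 0.622 CPM in PWK, with a median of 0.116. Defb1, a beta-defensin with antimicrobial activity, ranged from 16 to 343 CPM (median 49) in Cast, against 0.398 to 2.15 CPM (median 1.2) in PWK. Pus7l, a member of the pseudouridine synthase family, ranged from 16.3 to 319.6 CPM (median 105) in Cast, against 1.29 to 2.28 CPM (median 1.95) in PWK. The Cast ranges were wide, and that none reached a PWK library was a condition of the choice. Marco, a scavenger receptor of macrophages, had 20.1 CPM in Cast 5 and 60.6 CPM in Cast 6, 0.774 to 3.26 CPM in the other 5 Cast libraries, and at most 0.247 CPM in PWK. Mup15, Serpina3c, Tspan10, Ear2, Patl2 and Spata22 completed the 12, with log2 fold changes from 6.97 to 9.41.

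The 12 lower genes of the set included a pheromone, a hepcidin and an interferon-inducible GTPase. Mup20, which encodes the male pheromone darcin, ranged from 0 to 1.87 CPM (median 0.673) in Cast; in PWK it was 4833 to 10263 CPM in the 4 libraries with low Xist and 35.6 to 86.3 CPM in the 4 with high Xist. Hamp2, a paralog of the iron hormone hepcidin, ranged from 0 to 1.22 CPM (median 0.0643) in Cast and from 217 to 1351 CPM (median 637) in PWK. Dntt (chr19:41029275-41059523), a template-independent DNA polymerase known from lymphocyte development, ranged from 0 to 0.119 CPM (median 0.0737) in Cast and from 26.8 to 172 CPM (median 78.3) in PWK. The groups did not overlap for any of these genes, which the choice of the set required.

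Miox and Slc22a30 were also among the 12 lower genes. Miox, the first enzyme of inositol breakdown and best known from the kidney, ranged from 0 to 0.479 CPM (median 0.155) in Cast and from 32.1 to 41.8 CPM (median 37) in PWK. Slc22a30, an organic anion transporter gene, ranged from 0 to 2.28 CPM (median 0.414) in Cast and from 98.2 to 293 CPM (median 149) in PWK. The log2 fold changes were -7.61 ± 0.5 (SE, adjusted p = 2.61e-19) for Miox and -7.55 ± 0.46 (adjusted p = 2.38e-20) for Slc22a30. Hba-a1, Iigp1, Rarres1, Rpl9-ps6, Adgrv1, Fam213b and Fabp12 completed the 12, with log2 fold changes from -10.54 to -7.41. Adgrv1, an adhesion receptor, split in PWK as Mup20 did, with 28.4 to 75.5 CPM in the libraries with low Xist and 3.25 to 5.25 CPM in those with high Xist, and was at no more than 0.179 CPM in Cast.

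**Figure D1:**
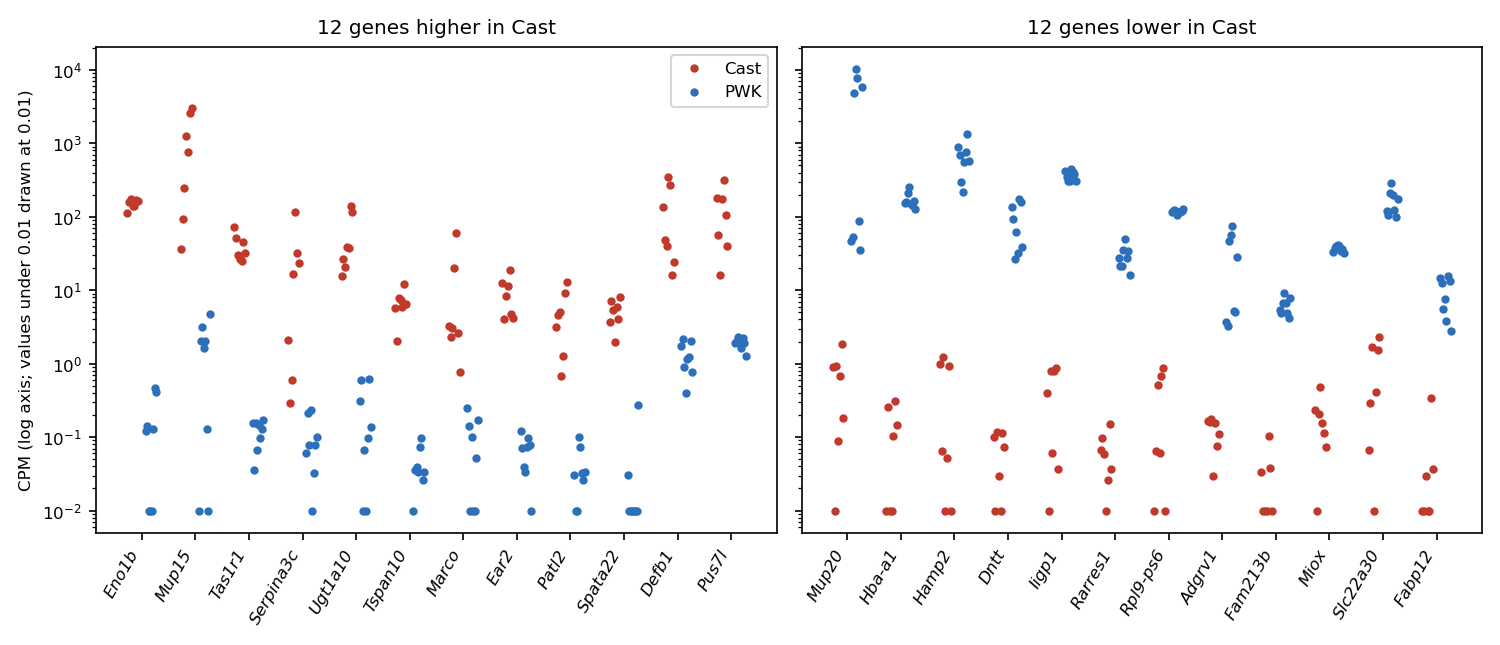
Level in CPM (log axis, values under 0.01 drawn at 0.01) of the 12 genes with the largest increase and the 12 with the largest decrease in Cast among separate genes with more than 3 reads in the lower strain; each point is a library, Cast in red left of PWK in blue. The groups do not overlap in any of the 24 genes, which was a condition of their choice. The PWK points of Mup20 form one group of 4 at 4833 to 10263 CPM and another of 4 at 35.6 to 86.3 CPM.

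Placed among the other strains, the 24 genes differed in which strain was unusual. Of the 12 higher genes, 7 had only the Cast mean outside the range of the other 6 strains, 4 had both means outside it, and Marco alone had only the PWK mean outside. Tas1r1, for example, averaged 40.6 CPM in Cast, 0.12 CPM in PWK and 0.042 to 0.134 CPM in the others, while Spata22, a meiotic recombination gene, averaged 5.17 CPM in Cast, 0.0378 CPM in PWK and 3.17 to 4.86 CPM in the others. Of the 12 lower genes, 5 had only Cast outside, 5 had both, and Miox and Fabp12 had only PWK outside. Miox averaged 0.181 CPM in Cast and 36.9 CPM in PWK, and 0.0106 to 0.251 CPM in the other 6 strains.

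**Figure D2:**
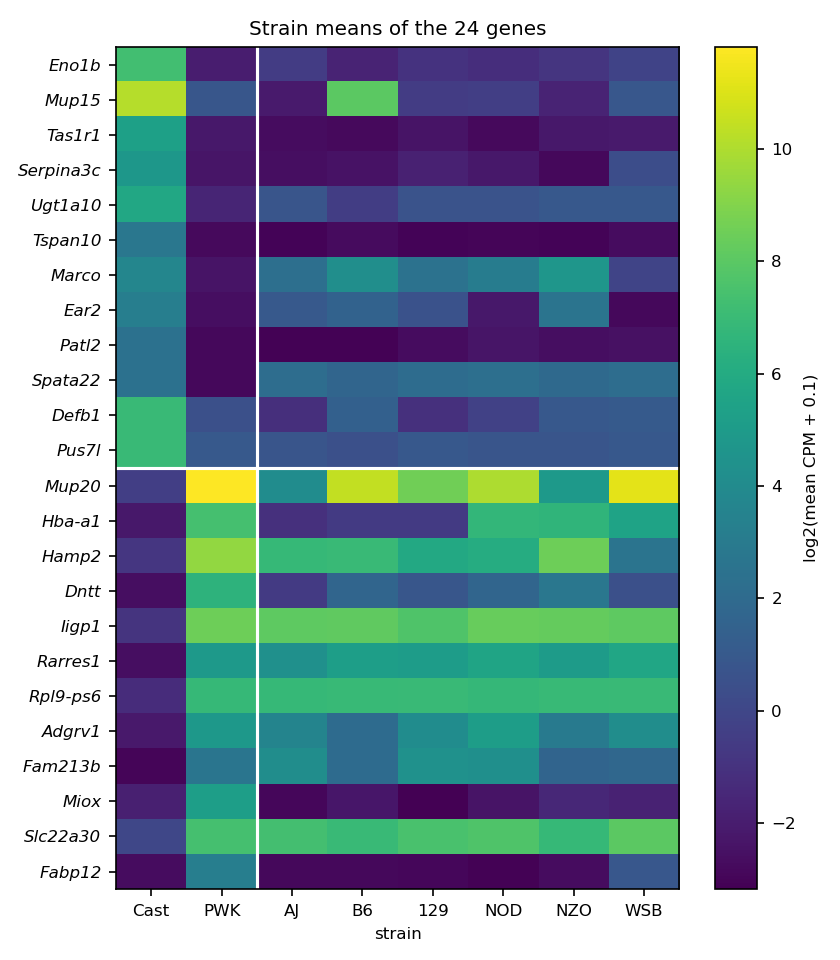
Mean level, as log2(CPM + 0.1), of the same 24 genes in Cast, PWK and the other 6 strains; white lines set off Cast and PWK and divide genes higher from genes lower in Cast. Iigp1, Rarres1, Rpl9-ps6 and Slc22a30 are dark in Cast alone, Miox is bright in PWK alone, and Spata22 is dark in PWK alone.

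A set of 11 genes was at the detection floor in one strain, with at most 3 reads summed over its libraries, and averaged at least 5 CPM in the other. Zfp872, a zinc finger gene, had 0 reads in PWK and 9.71 to 35.5 CPM (median 16.6) in Cast, which is at least 1449-fold higher in Cast when 3 reads over the PWK group are taken as the floor. Dnah5, an axonemal dynein, Zfp605 and Clec2h, a C-type lectin, also lay at the floor in PWK. A4gnt, Aldh3b3, Lrrtm3, Tgtp2, Wfdc17 and Ubash3a, a regulator of T cell receptor signalling, lay at the floor in Cast; Ubash3a had 1 read in all Cast libraries together and 17.9 to 31.2 CPM (median 26.7) in PWK. Col28a1, a collagen, had 0 reads in Cast and averaged 7.52 CPM in PWK, but the PWK median was 0.013 CPM and 1 library alone had 60.1 CPM, and it did not pass the filter on low counts.

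In several near-identical gene pairs one copy was higher in Cast and the other lower. These pairs were chosen after their values were seen, and reads of such copies can be split between them by the counting, so each level is uncertain. Rpl9, a protein of the large ribosomal subunit, ranged from 133 to 214 CPM (median 143) in Cast and from 4.8 to 7.88 CPM (median 6.64) in PWK. Its copy Rpl9-ps6 ranged from 0 to 0.879 CPM (median 0.0643) in Cast and from 107 to 126 CPM (median 118) in PWK. The sum of the pair was 133 to 214 CPM in Cast and 112 to 133 CPM in PWK, so most of the opposite differences was absent from the sum. Rps13 and its pseudogene Rps13-ps1 behaved alike: Rps13 had medians of 13.3 CPM in Cast and 68.7 CPM in PWK, Rps13-ps1 had medians of 70.2 CPM in Cast and 0.148 CPM in PWK, and their sum had medians of 78.9 CPM in Cast and 69.7 CPM in PWK. The alpha-globin genes also moved in opposite directions. Hba-a1 had medians of 0.104 CPM in Cast and 157 CPM in PWK, Hba-a2 had medians of 105 CPM in Cast and 21.8 CPM in PWK, and their sum was lower in all 7 Cast libraries, at 31.2 to 133 CPM, than in the PWK libraries, at 153 to 295 CPM. Loss of reads from alleles that differ from the counting reference was not tested for any gene here. Reads can also be split between similar members of the urinary protein, P450, serpin, carboxylesterase and histocompatibility families, so their levels carry the same uncertainty as the pairs above. The counting's use of strand is not given in the sources used here, so levels of overlapping and antisense genes are uncertain too.

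Genes of cholesterol synthesis were lower in Cast almost throughout. Of 20 tested genes, 18 (90.0%) fell and none rose, against 24.0% and 25.9% of all genes, and the median log2 fold change of the 20 was -1.82, against 0.01 over all genes. No member was higher in Cast at an unadjusted p below 0.05 in edgeR or at an adjusted p below 0.05 in DESeq2 (0 genes by each). Pmvk, which makes mevalonate diphosphate, ranged from 1.2 to 4.24 CPM (median 2.9) in Cast and from 10.9 to 55.4 CPM (median 30.9) in PWK, and its log2 fold change was -3.49 ± 0.38 (SE; adjusted p = 2.82e-11). Fdft1, squalene synthase, ranged from 7.69 to 42.2 CPM (median 18.9) in Cast and from 43.7 to 122 CPM (median 82.2) in PWK. For both enzymes the groups did not overlap, as for 4 of the 20 genes. Fdps, farnesyl diphosphate synthase, ranged from 3.26 to 44.5 CPM (median 15.8) in Cast and from 37.1 to 262 CPM (median 138) in PWK, with some overlap. Cyp51, lanosterol demethylase, ranged from 4.26 to 19.8 CPM (median 7.12) in Cast and from 19.1 to 152 CPM (median 71.2) in PWK. The other 2 members were not called. Without Cast 5 and Cast 6, 16 genes fell and none rose, with a median of -1.61.

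**Figure D3:**
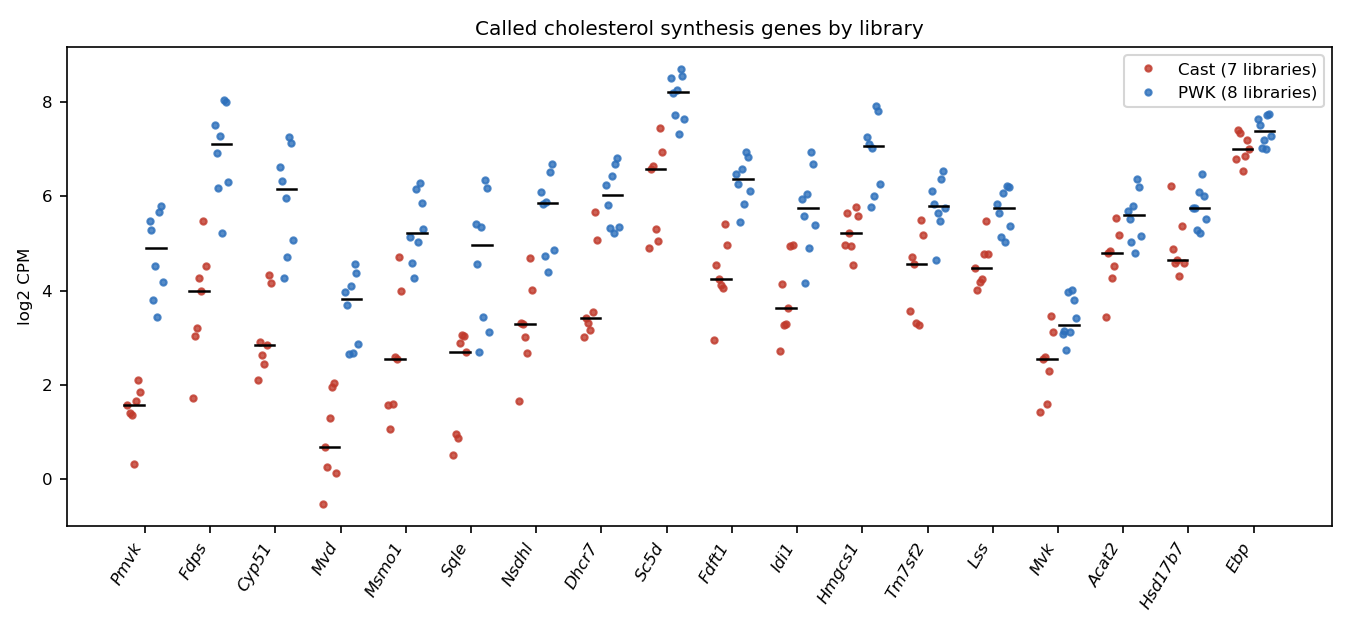
Level of the 18 called cholesterol synthesis genes in each library, as log2 CPM; Cast points in red left of PWK points in blue, black lines at the medians, genes ordered by the difference of the means. The Cast median lies below the PWK median in each of the 18 genes, and the largest gap is that of Pmvk, with medians of 2.9 CPM in Cast and 30.9 CPM in PWK.

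The promoters of these genes are shown because the list had the largest share of members called in one direction. RefSeq windows from 250 bases before to 50 after the start (GRCm38.p6) were at hand for 15 of the 20 genes, of which 4 with different motif content are printed 5′ to 3′ on the gene's strand. Capitals mark matches, on either strand, to the sterol element TCACNCCAC, the CCAAT box and the E-box CACGTG, and marked matches do not overlap.
Pmvk, chr3:89454291-89454590, plus strand: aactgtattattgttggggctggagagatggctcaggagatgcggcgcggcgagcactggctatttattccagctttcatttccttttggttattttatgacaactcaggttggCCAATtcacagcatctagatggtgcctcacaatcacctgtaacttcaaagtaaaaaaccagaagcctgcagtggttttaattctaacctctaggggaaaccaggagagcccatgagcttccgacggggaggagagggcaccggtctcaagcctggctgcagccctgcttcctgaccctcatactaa
Nsdhl, chrX:72918271-72918570, plus strand: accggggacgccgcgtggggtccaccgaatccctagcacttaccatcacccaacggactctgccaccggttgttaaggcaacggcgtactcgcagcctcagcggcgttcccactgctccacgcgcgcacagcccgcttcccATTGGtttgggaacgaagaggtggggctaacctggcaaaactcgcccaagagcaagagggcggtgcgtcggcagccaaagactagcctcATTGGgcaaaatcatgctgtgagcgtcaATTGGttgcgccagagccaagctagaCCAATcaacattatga
Sc5d, chr9:42264251-42264550, minus strand: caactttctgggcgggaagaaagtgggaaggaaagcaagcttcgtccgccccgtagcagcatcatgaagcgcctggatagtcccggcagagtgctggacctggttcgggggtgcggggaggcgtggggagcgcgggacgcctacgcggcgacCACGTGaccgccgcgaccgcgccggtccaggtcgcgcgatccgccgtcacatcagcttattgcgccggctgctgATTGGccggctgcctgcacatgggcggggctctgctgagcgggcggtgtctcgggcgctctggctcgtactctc
Hmgcs1, chr13:119690101-119690400, plus strand: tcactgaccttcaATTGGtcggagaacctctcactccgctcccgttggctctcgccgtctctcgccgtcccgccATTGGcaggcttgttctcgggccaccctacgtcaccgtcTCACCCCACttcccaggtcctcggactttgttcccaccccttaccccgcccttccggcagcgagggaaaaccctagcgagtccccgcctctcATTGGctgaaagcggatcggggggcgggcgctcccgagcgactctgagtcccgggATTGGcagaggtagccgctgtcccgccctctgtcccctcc
Pmvk holds 1 CCAAT box, Nsdhl holds 4, Sc5d holds 1 with 1 E-box, and Hmgcs1 holds 4 with 1 sterol element. CCAAT was found in 13 of the 15 windows (86.7%) and in 37.4% of all 32851 RefSeq promoter windows, the sterol element in 1 of 15 (6.67%) and in 1.24% of all, and CACGTG in 2 of 15 (13.3%) and in 7.15% of all. These are matches of letters in a short window and were not tested. Nsdhl, a sterol dehydrogenase, fell to a mean of 11.3 CPM in Cast, against 56.7 CPM in PWK, and Hmgcs1, the cytosolic HMG-CoA synthase, to 39.3 CPM in Cast, against 135 CPM in PWK.

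Of 16 genes of sterol sensing and uptake, 6 (37.5%) rose and 8 fell, and the median was -0.17. Among the genes that fell, Insig1, which retains the SREBP complex in the endoplasmic reticulum, ranged from 29 to 148 CPM (median 57.7) in Cast and from 171 to 369.6 CPM (median 298) in PWK. The groups did not overlap in this gene. Srebf2 itself averaged 31.9 CPM in Cast and 54.1 CPM in PWK. Among the genes that rose, Abcg5 and Abcg8, which together form the canalicular sterol exporter, averaged 101 and 203 CPM in Cast, against 41.8 and 77 CPM in PWK; Mylip, an LXR-induced ubiquitin ligase, ranged from 18.8 to 35.1 CPM in Cast and from 12.4 to 17.7 CPM in PWK; and Insig2 had medians of 729.6 CPM in Cast and 323 CPM in PWK. Abca1, the cholesterol efflux pump, and Nr1h3, which encodes LXR alpha, were higher in Cast by 0.48 and 0.35 on the log2 scale. Abcg5, Abcg8, Abca1, Srebf2, Nsdhl and Hmgcs1 fall outside the rule for named genes and were chosen after their values were seen.

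Fatty acid synthesis was lower in Cast in the same direction. Of 22 genes of fatty acid and triglyceride synthesis, 13 (59.1%) fell and 0 rose, with a median of -0.75; 1 gene was higher at an unadjusted p below 0.05 in edgeR and none was called higher by DESeq2. Pnpla3, a triglyceride lipase of lipid droplets that SREBP-1c induces, ranged from 0.15 to 2.6 CPM (median 1.23) in Cast and from 4.27 to 174 CPM (median 47.5) in PWK. Me1, malic enzyme, which supplies NADPH, ranged from 43.5 to 125 CPM (median 73.5) in Cast and from 151 to 882 CPM (median 387) in PWK. Gpam, the first acyltransferase of glycerolipid synthesis, ranged from 22.2 to 143 CPM (median 52) in Cast and from 196 to 486 CPM (median 309) in PWK. In these 3 genes, and in Mid1ip1 and Agpat2, every Cast library was below every PWK library. Of the 9 genes not called, Acaca, Acacb, Scd1, Fads2, Thrsp, Dgat1 and Mlxipl had log2 fold changes from -0.57 to 0.1. The others, Lpin1 and Lpin2, leaned higher in Cast, at 0.86 (adjusted p = 0.0653) and 0.47 (adjusted p = 0.0929). Leaving out Cast 3 or PWK 9 added 2 calls higher in Cast, and leaving out Cast 8 added 1.

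Genes of fatty acid oxidation and targets of PPAR alpha were called in both directions, with all libraries at shares under those of all genes. Of 36, 7 (19.4%, against 25.9% of all genes) rose and 8 (22.2%, against 24.0%) fell, with a median of -0.18. Without Cast 5 and Cast 6, 12 (33.3%, against 21.6% of all genes) rose and 4 (11.1%, against 21.2%) fell, with a median of 0.05. Cyp4a14, a fatty acid omega-hydroxylase induced by PPAR alpha, ranged from 0 to 1998 CPM (median 74.7) in Cast and from 0.0664 to 9.97 CPM (median 4.25) in PWK, and its log2 fold change was 6.36 ± 1.29 (SE; adjusted p = 4.57e-05). The groups overlapped: Cast 1, Cast 2, Cast 3 and Cast 6 lay above every PWK library, and Cast 5, Cast 7 and Cast 8 had 3.44, 0.765 and 0 CPM. Cpt1a, which admits fatty acids to the mitochondrion, ranged from 277 to 1096 CPM (median 531) in Cast and from 237 to 478 CPM (median 293) in PWK. Pdk4, which spares glucose by blocking pyruvate dehydrogenase, had medians of 53.8 CPM in Cast and 6.39 CPM in PWK (log2 fold change 2.87 ± 0.53, adjusted p = 1.11e-05). Eci1 and Acads, enzymes of mitochondrial beta-oxidation, fell, with medians of 38.6 and 84.4 CPM in Cast, against 96.4 and 127 CPM in PWK. Among 20 genes of lipid droplets and lipolysis, 4 rose and 3 fell; without Cast 1, 5 fell. Pnpla2, adipose triglyceride lipase, was 493 CPM in Cast 1, 68.9 to 154 CPM in the other Cast libraries and 32 to 55.7 CPM in PWK. Among 22 genes of apolipoproteins and lipoprotein handling, 4 (18.2%) rose and 5 (22.7%) fell, and 3 fell without Cast 5 and Cast 6. Mttp, which loads lipid onto apolipoprotein B, ranged from 520.4 to 643 CPM (median 572) in Cast and from 333 to 455 CPM (median 403) in PWK, without overlap, and Apom, an apolipoprotein of high-density lipoprotein, fell by 1.22 on the log2 scale.

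Of 25 genes of glycolysis, fructose and glycogen metabolism, 7 rose and 10 fell (median -0.34), and 6 fell with only the Cast and PWK libraries in the fit. Pygl, liver glycogen phosphorylase, ranged from 95.5 to 522 CPM (median 449) in Cast and from 703 to 1020.1 CPM (median 838) in PWK. The groups did not overlap in this gene. Of 16 gluconeogenic genes, 7 (43.8%) rose and 1 fell, with a median of 0.34; without Cast 1, 4 rose. Ppargc1a, a coactivator induced by fasting, had medians of 37.4 CPM in Cast and 11.6 CPM in PWK. Pck1, the key enzyme of gluconeogenesis, ranged from 3157 to 5799 CPM (median 3833) in Cast and from 1426 to 3215 CPM (median 2495) in PWK, with overlap, and Pcx, pyruvate carboxylase, fell by 0.52 on the log2 scale.

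Of 30 genes of the urea cycle and amino acid breakdown, 11 (36.7%, against 25.9% of all genes) rose and 3 (against 24.0% of all genes) fell, 16 were not called, and the median was 0.28. Oat, ornithine aminotransferase, ranged from 942 to 2893 CPM (median 1772) in Cast and from 230.0 to 562 CPM (median 267) in PWK, and Asl, argininosuccinate lyase, from 447 to 1822 CPM (median 910.4) in Cast and from 209.8 to 428 CPM (median 305) in PWK. Both were separated between the strains, with log2 fold changes of 2.54 ± 0.3 (SE, adjusted p = 5.21e-10) and 1.71 ± 0.23 (adjusted p = 8.42e-09). The count of genes that fell was 1 without Cast 5 or Cast 6 and 5 or 6 without Cast 3 or Cast 2. Of 14 genes of bile acid synthesis, 3 rose and 3 fell, and of 15 genes of bile acid transport and regulation 3 fell and 0 rose (0 at an unadjusted p below 0.05 in edgeR, 0 by DESeq2; 1 rose without Cast 5 and Cast 6). The lower count of bile acid synthesis was 5 without Cast 7 or Cast 8, 5 with limma and 6 with Xist as a covariate; for transport and regulation, 6 fell with limma and 2 rose with the covariate. Cyp7a1, the rate-limiting enzyme of bile acid synthesis, had medians of 221 CPM in Cast and 64.6 CPM in PWK (log2 fold change 2.01 ± 0.51, adjusted p = 0.000909). Slc10a1, which takes up bile salts from the sinusoid, had medians of 397 CPM in Cast and 561 CPM in PWK.

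Enzymes of drug and xenobiotic metabolism differed gene by gene. Of 52 P450 genes and their reductase, 17 (32.7%) rose and 10 (19.2%) fell; without Cast 5 and Cast 6, 19 rose and 5 fell, without either library 6 fell, and with only the Cast and PWK libraries in the fit 2 fell. Cyp39a1, an oxysterol hydroxylase, ranged from 13.6 to 279.5 CPM (median 97.8) in Cast and from 0.0664 to 3.85 CPM (median 1.67) in PWK. Of 52 conjugating enzymes, 11 rose and 18 (34.6%) fell. Gstt1, a theta-class glutathione transferase, ranged from 3.14 to 17.6 CPM (median 5.96) in Cast and from 70.3 to 151 CPM (median 121) in PWK, while Gstm2, of the mu class, ranged from 15.3 to 114 CPM (median 35.5) in Cast and from 0.865 to 4.61 CPM (median 2.06) in PWK. These 3 genes were separated between the strains, in opposite directions for the 2 transferases. Of 14 carboxylesterases, 4 rose and 6 fell, and 3 fell without Cast 5 and Cast 6. Ces1e fell by 3.13 and Ces2a rose by 2.83 on the log2 scale. Of 27 NRF2 targets, 7 rose and 4 fell; Hmox1, heme oxygenase, ranged from 25.5 to 51.9 CPM (median 29.2) in Cast and from 10.6 to 17.7 CPM (median 12.4) in PWK.

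Secreted proteins included some of the most abundant strain differences. Of 20 serpins of the alpha-1 antitrypsin family, 9 (45.0%) rose and 5 fell. Serpina1a, a copy of alpha-1 antitrypsin, the inhibitor of neutrophil elastase, ranged from 54.8 to 112 CPM (median 92.3) in Cast and from 3314 to 12226 CPM (median 6115) in PWK, and its log2 fold change was -6.22 ± 0.27 (SE; adjusted p = 4.41e-27). Serpina1c ranged from 247 to 423 CPM in Cast and from 2.07 to 174 CPM in PWK, and both strains lay below the other 6, at 2985 to 9146 CPM. The sum of Serpina1a to Serpina1e overlapped between the strains, with medians of 11075 CPM in Cast and 17423 CPM in PWK. Of 19 major urinary proteins, which carry pheromones, 5 rose and 4 fell; Mup19 and Mup3 had medians of 1207 and 1183 CPM in Cast, against 18.7 and 30.8 CPM in PWK, and the sum over all 19 ranged from 3247 to 58377 CPM in Cast and from 2014 to 69578 CPM in PWK.

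Counts of acute phase proteins depended on Cast 5 and Cast 6. Of 25 genes, 8 (32.0%) rose and 7 (28.0%) fell with a median of 0.5, and without these libraries 4 rose and 9 fell with a median of -0.09. Serpina3n, an inducible antichymotrypsin, had 2306 CPM in Cast 5 and 6267 CPM in Cast 6, 548 to 1294 CPM in the other Cast libraries and 353 to 584 CPM in PWK. Lcn2, a siderophore-binding protein of inflamed liver and neutrophils, had 46.4 CPM in Cast 5 and 297 CPM in Cast 6, 0.675 to 6.35 CPM in the other Cast libraries and 0.645 to 7.89 CPM in PWK. Its log2 fold change was 3.82 ± 1.12 (SE, adjusted p = 0.00377) with all libraries, 1.43 (adjusted p = 0.247) without Cast 6 and -0.69 (adjusted p = 0.64) without both libraries. Orm1, an acute phase carrier protein, had medians of 222 CPM in Cast and 9.57 CPM in PWK, and Saa4, a constitutive serum amyloid, of 55 CPM in Cast and 304 CPM in PWK. Of 41 complement and coagulation genes, 8 rose and 9 fell; 5 rose without Cast 6. F11, coagulation factor XI, ranged from 17.5 to 61.2 CPM in Cast and from 78.6 to 115 CPM in PWK.

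Hormone-responsive and iron genes showed single large differences. Of 25 genes of growth hormone, IGF and insulin signalling, 9 (36.0%) rose and 4 fell; without Cast 5 and Cast 6, 7 rose and 1 fell, and without Cast 5 alone 2 fell. Lepr, the leptin receptor, ranged from 17.8 to 1165 CPM (median 309.6) in Cast and from 2.19 to 39.1 CPM (median 21.5) in PWK. Igfbp1, an insulin-repressed binding protein of IGF, was 2003, 3854 and 3310.4 CPM in Cast 1, Cast 5 and Cast 6, 261 to 686 CPM in the other Cast libraries and 54.4 to 377 CPM in PWK. Of 27 genes of iron, heme and metallothioneins, 5 rose and 10 (37.0%) fell, and 6 fell without Cast 5 and Cast 6. Cpox, an enzyme of heme synthesis, ranged from 43.9 to 92.9 CPM (median 55.3) in Cast and from 114 to 260.2 CPM (median 138) in PWK. Among 25 female-biased genes 2 rose and 5 fell, and among 25 male-biased genes 2 rose and 3 fell; with Xist as a covariate the counts were 7 and 8 for the female-biased and 4 and 9 for the male-biased genes. Without Cast 5 and Cast 6, or without either, 2 female-biased genes fell, and 3 fell without Cast 7, Cast 8, PWK 1 or PWK 6.

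Interferon-stimulated genes were lower in Cast. Of 48 tested, 35 (72.9%) fell and 3 (6.25%) rose, with a median log2 fold change of -1.10. Irf7, the factor that amplifies type I interferon responses, ranged from 1.22 to 9.49 CPM (median 2.69) in Cast and from 14.1 to 56.4 CPM (median 36) in PWK, and its log2 fold change was -3.46 ± 0.31 (SE; adjusted p = 7.19e-14). Ifi44 ranged from 0.0643 to 0.748 CPM (median 0.115) in Cast and from 1.49 to 9.9 CPM (median 4.57) in PWK, and Lgals3bp, a secreted lectin-binding glycoprotein, from 39.7 to 139 CPM (median 76.5) in Cast and from 203 to 442 CPM (median 363) in PWK. None of these overlapped between the strains. Against the means of the other 6 strains, Lgals3bp was unusual in PWK, since the others had 44.6 to 90.8 CPM. Irf7 was below the others in Cast, since they had 6.27 to 35.3 CPM, and its PWK median of 36 CPM was just above their highest mean. Oasl2, an oligoadenylate synthetase-like gene, had medians of 1.33 CPM in Cast and 11.8 CPM in PWK. The 3 genes that rose were Ifi27, with 14.7 to 65.6 CPM in Cast and 7.3 to 13.8 CPM in PWK, Ifitm2 and Phf11d. Ifitm2 and Phf11d were named after their values were seen. On the log2 CPM scale, Phf11d was at 4.75 in Cast 5 and 3.95 in Cast 6. It was at 0.4 to 2.1 in the other Cast libraries and 0.84 to 1.9 in PWK. Stat2, which carries the interferon signal, was not called, with a log2 fold change of -0.25 (adjusted p = 0.118). Without Cast 5 and Cast 6, 37 fell and 2 rose, with a median of -1.33. Cast 5 had the highest mean level of the list among Cast libraries and PWK 9 the lowest among PWK libraries.

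The interferon-inducible GTPases, which attack the vacuoles of intracellular pathogens, fell as well. Of 18, 12 (66.7%) fell and 0 rose (0 at an unadjusted p below 0.05 in edgeR, 0 by DESeq2), with a median of -1.48. Iigp1 (chr18:60376029-60392627) ranged from 0 to 0.879 CPM (median 0.399) in Cast and from 306 to 444 CPM (median 365) in PWK, and the other 6 strains had means of 205 to 324 CPM. Irgm2, a regulator of the effector GTPases, ranged from 12.6 to 41.8 CPM (median 20.3) in Cast and from 72 to 112 CPM (median 88.8) in PWK. Both were separated, as were 5 of the 18. Tgtp2 had 3 reads in all Cast libraries together, while its neighbour in the family Tgtp1, named after its values were seen, averaged 6.08 CPM in Cast and 2.97 CPM in PWK and was not called (adjusted p = 0.12).

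**Figure D4:**
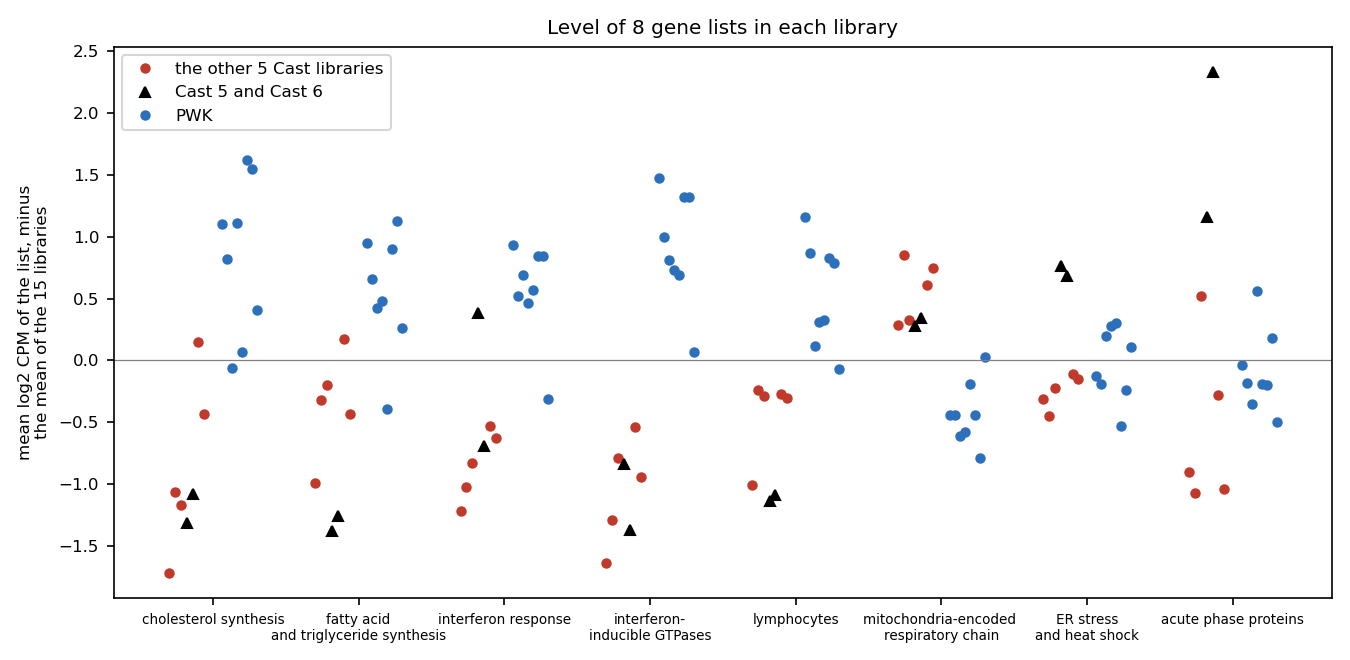
Mean log2 CPM of 8 gene lists in each library, relative to the mean of the 15 libraries; Cast in red and, for Cast 5 and Cast 6, black triangles, left of PWK in blue. Cast 5 and Cast 6 are at 0.76 and 0.68 for the endoplasmic reticulum stress list and at 1.16 and 2.33 for acute phase proteins, while Cast 7 is the only Cast library above 0 for cholesterol synthesis, at 0.15.

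Most genes of MHC class II presentation were lower in Cast. Of 10 tested genes of MHC class II presentation, 7 (70.0%) fell and 2 rose. H2-Aa and H2-Ab1, the chains of the I-A molecule, had medians of 17.3 and 11.5 CPM in Cast, against 73.5 and 43 CPM in PWK, with no overlap in either gene. H2-Eb1, the beta chain of I-E, ranged from 1.84 to 19.7 CPM (median 12.9) in Cast and from 0.585 to 1.57 CPM (median 1) in PWK, and H2-Ea-ps from 0.647 to 7.49 CPM in Cast and from 0 to 0.136 CPM in PWK. Of 22 genes of MHC class I presentation, 8 fell and 1 rose, and 13 were not called. H2-T22, a nonclassical class I gene, ranged from 3.4 to 8.69 CPM (median 6.23) in Cast and from 12.3 to 23.5 CPM (median 21.1) in PWK. The gene that rose, H2-T10 (log2 fold change 0.45, adjusted p = 0.0322), was named after its values were seen; the count of higher calls was 0 or 2 in 9 of the 15 leave-outs of one library (0 without Cast 7, Cast 8, PWK 2 or PWK 4, and 2 without Cast 1, Cast 6, PWK 1, PWK 5 or PWK 7), and 2 without Cast 5 and Cast 6 together.

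Markers of the other cells of the liver moved in both directions, and their part in the differences above was not tested. Of 23 lymphocyte genes, 13 (56.5%) fell and 0 rose (0 at an unadjusted p below 0.05 in edgeR, 0 by DESeq2), with a median of -1.83, also with Nkg7 at its bound. The summed level of the list ranged from 9.91 to 24.6 CPM (median 16.6) in Cast and from 18.8 to 44.3 CPM (median 30.8) in PWK. Klrk1, an activating receptor of NK and T cells, ranged from 0 to 0.225 CPM (median 0.115) in Cast and from 0.407 to 1.7 CPM (median 0.753) in PWK, and Cd8a, the coreceptor of cytotoxic T cells, from 0 to 0.258 CPM in Cast and from 0.429 to 0.855 CPM in PWK. Nkg7, a granule protein of cytotoxic cells, had 0 reads in all 7 Cast libraries and 0.034 to 0.583 CPM in PWK. These levels are low, and with only the 15 Cast and PWK libraries in the fit 4 of the lymphocyte genes were called lower, or 3 with a minimum of 1 CPM in 7 libraries.

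Genes of the liver sinusoidal endothelium fell moderately. Of 20, 12 fell and 3 rose, with a median of -0.45 and a summed level of 561 to 945 CPM (median 830.2) in Cast and 892 to 1142 CPM (median 1021) in PWK. Cdh5, the cadherin of endothelial junctions, ranged from 18.2 to 23.9 CPM (median 22.4) in Cast and from 39.4 to 58.2 CPM (median 45.1) in PWK, and Kdr, the VEGF receptor, from 30.7 to 68.6 CPM (median 58.3) in Cast and from 85.5 to 121 CPM (median 105) in PWK. Neither gene overlapped, and the log2 fold changes were -1.1 ± 0.11 (SE, adjusted p = 4.58e-13) and -1.02 ± 0.11 (adjusted p = 7.15e-11). Pecam1 and Lyve1, which also mark these cells, were not called, with log2 fold changes of 0.12 (adjusted p = 0.357) and -0.13 (adjusted p = 0.652). Of 19 Kupffer cell and macrophage genes, 4 rose and 8 fell, and 4 fell without Cast 5 and Cast 6. Lyz2, lysozyme, ranged from 26.3 to 45 CPM (median 34.4) in Cast and from 3.5 to 11.8 CPM (median 8.65) in PWK, while Clec4f, a lectin specific to Kupffer cells in mice, had medians of 65 CPM in Cast and 104 CPM in PWK. The summed Kupffer list ranged from 424 to 682 CPM in Cast and from 539 to 1026 CPM in PWK.

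The remaining cell types gave smaller or less stable counts. Of 22 stellate cell and fibrosis genes, 5 rose and 7 fell; Dcn, the proteoglycan decorin, ranged from 116 to 150.4 CPM (median 127) in Cast and from 58.8 to 83.2 CPM (median 72.6) in PWK. Of 11 cholangiocyte genes 4 rose and 2 fell, with a summed level of 948 to 1676 CPM in Cast and 1801 to 2307 CPM in PWK, and of 12 genes of lipid-associated macrophages 1 rose and 4 fell; 2 rose without Cast 2 or PWK 7. Of 7 red cell genes tested, 5 fell and 1 rose, and the summed level was 70.4 to 282 CPM in Cast and 305 to 593 CPM in PWK. The summed level of the neutrophil genes ranged from 3.79 to 312 CPM (median 5.24) in Cast and from 1.9 to 12.5 CPM (median 4.54) in PWK. Lcn2, described above as a protein of inflamed liver and neutrophils, is on this list and made up most of the 312 CPM, which was in Cast 6. Of 8 neutrophil genes tested, 4 rose and none fell (0 at an unadjusted p below 0.05 in edgeR, 0 by DESeq2). Without Cast 5 and Cast 6 none of the 8 was called, nor at an unadjusted p below 0.05 in edgeR; without Cast 6 the count was 1, and without Cast 5, PWK 5 or PWK 9 it was 2. Of 7 genes of pancreas, fat and muscle, Cela1, an elastase, fell and none rose (0 at an unadjusted p below 0.05 in edgeR, 0 by DESeq2). Of the 12 hepatocyte markers, 3 rose and 2 fell, among them Tat, tyrosine aminotransferase, with medians of 4298 CPM in Cast and 1615 CPM in PWK; albumin (Alb) was not called (log2 fold change -0.55, adjusted p = 0.0871).

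Of 26 cell cycle genes, 10 (38.5%, against 24.0% of all genes) fell, 1 rose and 15 were not called, with a median of -0.55. The higher count moved when certain single libraries were left out (3 without Cast 3, Cast 7 or Cast 8, and 2 without Cast 2, PWK 2, PWK 3 or PWK 7). E2f7, an atypical E2F repressor active in polyploid hepatocytes, ranged from 2.65 to 16.8 CPM (median 7.55) in Cast and from 87.3 to 150.1 CPM (median 121) in PWK, and its log2 fold change was -3.75 ± 0.39 (SE; adjusted p = 5.58e-12). The other 6 strains had means of 0.504 to 3.56 CPM, so that PWK was the high strain. Aurka and Cdk1, kinases of mitosis, were also separated, with medians of 0.715 and 0.0894 CPM in Cast, against 2.16 and 1.07 CPM in PWK. Of 23 clock and clock output genes 1 rose and 3 fell, and of 19 immediate early and handling stress genes 2 rose and 2 fell. With Cast 5 and Cast 6 left out, 2 clock genes rose and 4 fell, and 1 immediate early gene rose and 1 fell. Leaving out single libraries moved the clock counts to 2 higher (Cast 3, Cast 7, Cast 8, PWK 3, PWK 4 or PWK 9) or 5 lower (Cast 7), and the immediate early count to 1 lower (Cast 1, Cast 6, Cast 7, PWK 2, PWK 7 or PWK 9).

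More genes of chaperones, ribosomes and the proteasome rose than fell in Cast, by counts that depended on Cast 5 and Cast 6. Of 34 genes of endoplasmic reticulum stress and heat shock, 13 (38.2%) rose and 4 fell with a median of 0.23; without Cast 5, 8 rose, and without both libraries 4 rose and 9 fell with a median of -0.17; 7 rose with only the Cast and PWK libraries in the fit. Creld2, a secreted chaperone of the unfolded protein response, had 309.9 CPM in Cast 5 and 189.7 CPM in Cast 6, 21.4 to 41.6 CPM in the other Cast libraries and 9.46 to 54.2 CPM (median 20.3) in PWK, and its log2 fold change of 2.02 (adjusted p = 0.000101) was 0.42 (adjusted p = 0.36) without both libraries. Atf6, a sensor of misfolded protein, had medians of 98.8 CPM in Cast and 65.1 CPM in PWK. Of 81 cytosolic ribosomal protein genes, 53 (65.4%) rose and 5 fell with a median of 0.31, and without both of these libraries 35 rose and 7 fell with a median of 0.14. Of 42 proteasome subunits, 26 (61.9%) rose and 3 fell with a median of 0.26; without Cast 5 16 rose, and without both libraries 9 rose and 5 fell with a median of 0.07; 14 rose with only the Cast and PWK libraries in the fit. Without both libraries, 21.6% of all genes rose and 21.2% fell.

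Transcripts of the mitochondrial genome took a larger share of reads in Cast. The mitochondria-encoded genes of the count table, protein-coding and rRNA, made up 6.24% to 9.23% of counts in Cast, 7.59% ± 1.04 (SD, n = 7), and 4.61% to 6.48% in PWK, 5.54% ± 0.629 (SD, n = 8), a difference of 2.06 percentage points (two-sided exact permutation test, p = 0.000622). Of the 13 protein-coding genes 10 (76.9%) rose and 1 fell, with a median of 0.62. mt-Nd4l, a subunit of complex I whose gene overlaps mt-Nd4, was an outlier of size, with 525 to 920.2 CPM (median 641) in Cast and 9.67 to 27.9 CPM (median 12.7) in PWK, where the other 6 strains had means of 597 to 784 CPM. mt-Nd2, another complex I subunit, ranged from 4070.5 to 6314 CPM in Cast and from 1779.6 to 3220.4 CPM in PWK. mt-Co1, the catalytic subunit of cytochrome oxidase, was not called (log2 fold change 0.12, adjusted p = 0.378). The gene that fell, mt-Co2, was not called without Cast 5, Cast 8, PWK 2 or PWK 9. Among 74 nuclear genes of the respiratory chain 18 (24.3%) rose and 12 (16.2%) fell, with a median of 0.04, and 7 fell without Cast 5 and Cast 6. Cycs, cytochrome c, ranged from 126 to 203 CPM (median 169) in Cast and from 46 to 67.2 CPM (median 54.6) in PWK, and Ndufb4, a complex I subunit, from 10.6 to 17.7 CPM (median 14.4) in Cast and from 32.9 to 43.8 CPM (median 34.9) in PWK.

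Of 32 nuclear receptor and hepatocyte transcription factor genes, 4 (12.5%, against 25.9% of all genes) rose and 6 (18.8%, against 24.0%) fell, and 3 fell without Cast 5, without Cast 6 or without both. Of 21 genes of pericentral and periportal zonation, 4 rose and 5 fell, and 3 fell without Cast 5 and Cast 6. Slc1a2, a glutamate transporter of pericentral hepatocytes, ranged from 228 to 415 CPM (median 321) in Cast and from 84.8 to 149 CPM (median 111) in PWK, and Lhpp, a phosphatase, from 32.7 to 96.5 CPM (median 41.7) in Cast and from 9.01 to 16.2 CPM (median 10.6) in PWK. Both rose with no overlap. Cyp2e1, an ethanol-oxidising pericentral P450, had medians of 3755 CPM in Cast and 5154 CPM in PWK. Of 335 zinc finger genes named Zfp, 78 (23.3%) rose and 70 (20.9%) fell, with a median of 0.0, and of 35 collagens 5 rose and 15 (42.9%) fell, with a median of -0.43.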

How the data were processed

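RNA-seq libraries of liver from 8 inbred strains were analysed, of which 7 Cast and 8 PWK libraries were compared. The authors deposited a table of expected counts per gene (estimated reads, not normalised; 21.0% of values not whole) and a variance-stabilised table on a log2-like scale; the settings of the transformation, the aligner and the counter were not stated by any source at hand. The submitters' processing notes name GRCm38 and DESeq2 without a version. Of 18754 genes, 16165 passed edgeR's filter on low counts by strain. Expected counts were rounded, where the design had assumed whole counts. Of the table's columns, 1 matched no sample and was not used. The main test was edgeR 4.0.16's quasi-likelihood test (R 4.3.3, TMM scaling) on all 60 libraries with strain as the factor, contrast Cast minus PWK, adjusted by Benjamini-Hochberg over all genes, threshold 0.05. All libraries entered because they share one estimate of the spread. The script was tested on simulated counts first. DESeq2 1.42.0 and limma 3.58.1 on the deposited log2-like values were alternatives, beside scaling, filter, library and covariate choices. The share of mitochondria-encoded reads was tested by a two-sided exact permutation test over libraries. Log2 CPM used a prior count of 2. Library totals of 25145691 to 38180366 counts limit the precision at low levels. Gene lists were described by counts and medians with no test of the list. Members and lists were chosen with earlier results of these data known. Named genes were the 12 with the largest separate differences in each direction among called protein-coding genes averaging at least 5 CPM in the higher strain and with more than 3 reads in the lower (without Xist, Y-linked genes, olfactory receptors and predicted genes), up to 5 called members with the smallest p of each list, called hepatocyte, nuclear receptor and growth hormone genes with an absolute log2 fold change of at least 1, and genes with at most 3 reads in one strain and at least 5 CPM in the other. Genes outside this rule, all genes named as not called included, were chosen after their values were seen. Positions are GRCm38 as deposited, and promoters are from RefSeq, GRCm38.p6. Values of some genes are not reported here.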

Additional observations from a re-analysis of the deposited data

Results flagged for a closer look

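In 34 of 482 groups of libraries (a named gene in one strain), 1 library lay apart from the rest of its strain by Dixon's criterion on log2 CPM, which chance meets in about 1 of 20 groups. That rate does not apply to Zfp605, A4gnt, Ubash3a, Lrrtm3 and Wfdc17, chosen for being at the floor in that strain, where every other library is at 0 and a few reads fix the outcome. PWK 9 accounted for 8 of these, Cast 1 for 7 and Cast 5 for 4. Values are CPM, with the range of the strain's other libraries, and no explanation was tested.

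PWK 9 stood above the other PWK libraries in Spata22 at 0.272 CPM (0 to 0.0308 in the others), Oat at 562 CPM (230.0 to 307 in the others) and mt-Nd4l at 27.9 CPM (9.67 to 13.9 in the others). PWK 9 stood above the other PWK libraries in Zfp605 at 0.034 CPM (0 in all others). PWK 9 stood below the other PWK libraries in Lgals3bp at 203 CPM (358 to 442 in the others), Irf7 at 14.1 CPM (33.3 to 56.4 in the others) and H2-T24 at 5.16 CPM (9.46 to 12.5 in the others). PWK 9 stood below the other PWK libraries in Mki67 at 0.611 CPM (2.23 to 5.77 in the others). Cast 1 stood above the other Cast libraries in Pnpla2 at 493 CPM (68.9 to 154 in the others), Rxrb at 57.2 CPM (26.8 to 33.6 in the others) and Lhpp at 96.5 CPM (32.7 to 51.5 in the others). Cast 1 stood above the other Cast libraries in Wfdc17 at 0.0333 CPM (0 in all others). Cast 1 stood below the other Cast libraries in Serpina3g at 12.2 CPM (18.3 to 22.7 in the others), Fth1 at 967 CPM (1168 to 1324 in the others) and Dnah5 at 2.33 CPM (9.49 to 27.1 in the others). Cast 5 stood above the other Cast libraries in Pgam1 at 258 CPM (189.6 to 212 in the others) and Oasl2 at 5.57 CPM (1.03 to 1.76 in the others). Cast 5 stood below the other Cast libraries in Pmvk at 1.2 CPM (2.5 to 4.24 in the others) and Ndufa6 at 45.4 CPM (51.7 to 56.4 in the others).

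Cast 3 stood above the other Cast libraries in Cyp2b13 at 0.119 CPM (0 to 0.0333 in the others), A4gnt at 0.0596 CPM (0 in all others) and Ubash3a at 0.0298 CPM (0 in all others). Cast 2 stood above the other Cast libraries in Gzmb at 0.225 CPM (0 to 0.0333 in the others). Cast 2 stood below the other Cast libraries in Tspan10 at 2.03 CPM (5.76 to 12.3 in the others). Cast 7 stood above the other Cast libraries in Fabp12 at 0.344 CPM (0 to 0.0368 in the others) and Lrrtm3 at 0.115 CPM (0 in all others). PWK 4 stood above the other PWK libraries in Hba-a2 at 43.5 CPM (16.5 to 24.6 in the others). PWK 4 stood below the other PWK libraries in Krt7 at 0.133 CPM (0.291 to 0.432 in the others). PWK 5 stood above the other PWK libraries in Cpt1a at 478 CPM (237 to 325 in the others). PWK 5 stood below the other PWK libraries in Atp8b1 at 67.8 CPM (94.6 to 125 in the others). Cast 6 stood below the other Cast libraries in H2-T24 at 1.5 CPM (2.96 to 4.23 in the others). PWK 2 stood above the other PWK libraries in Ttr at 4091 CPM (2528 to 3148 in the others). PWK 3 stood below the other PWK libraries in Gstt2 at 24.7 CPM (41.2 to 58.3 in the others). PWK 6 stood below the other PWK libraries in Igfbp1 at 54.4 CPM (167 to 377 in the others).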

How the results depend on the processing

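The count of 8068 genes called was between 5710 (only the Cast and PWK libraries) and 8655 (DESeq2) under the settings that kept all Cast and PWK libraries unpaired, and the split into higher and lower calls moved by under 10 percentage points there. Leaving out 1 library in turn gave 7411 to 8243 genes called, 3776 to 4361 higher, 3520 to 3882 lower and 2854 to 3165 with an absolute log2 fold change of at least 1. On the deposited log2-like values with limma, 1312 genes, in place of 3067, passed the size rule; the cause was not tested. Same-numbered Cast and PWK libraries did not deviate together (correlations of -0.211 to 0.208 over 6 numbers, and 1 of 6 Cast libraries correlated best with its own number). Numbers 3, 6 and 7 join a library with high Xist to a library with low Xist, which limits this check. Whether same-numbered libraries shared a batch was not tested. The fit with the replicate number as a block used 12 libraries and called 3674 genes, 1652 higher and 2022 lower (45.0% of calls higher, against 51.9%), while the same 12 libraries unpaired gave 4798, 2466 and 2332; both hold fewer samples. Without Cast 5 and Cast 6, chosen after the data were seen, 6952 genes were called; of 241 named genes tested, 227 kept direction and call, 13 lost the call and Lcn2 turned to -0.69. The difference in mitochondria-encoded share was 1.78 to 2.28 percentage points in the leave-outs, 1.97 without 18S reads and 2.34 without Cast 5 and Cast 6. Depth limits genes under about 1 CPM, lymphocyte markers included. In the block fit, 181 named genes kept direction and call, 46 lost the call and 0 turned, against 206, 21 and 0 in the same 12 libraries unpaired. Many list counts moved in these fits and are not all listed here. Higher counts in the block fit were 13 (cytosolic ribosomal proteins), 2 (proteasome), 3 (endoplasmic reticulum stress) and 3 (mitochondria-encoded), and lower counts 1 (P450 list) and 4 (lymphocytes). List counts of the report that moved by over 1.5 times under settings that kept all Cast and PWK libraries unpaired, and are not given there, were as follows. With only the Cast and PWK libraries, the lower counts were 4 (fatty acid oxidation), 3 (apolipoproteins), 3 (carboxylesterases), 6 (iron), 1 (growth hormone), 1 (urea cycle), 3 (female-biased genes), 3 (red cells), 7 (nuclear respiratory chain), 2 (nuclear receptors), 2 (zonation) and 0 (mitochondria-encoded), and the higher counts 3 (stellate cells), 3 (collagens), 2 (lipid-associated macrophages), 2 (neutrophils) and 0 (MHC class I). With limma, the lower counts were 1 (female-biased genes), 1 (immediate early genes) and 0 (mitochondria-encoded), and the higher counts 3 (iron) and 0 (neutrophils). With Xist as a covariate, 1 interferon-inducible GTPase and 2 neutrophil genes were higher. With a minimum of 1 CPM in 7 libraries, 2 cholangiocyte genes were higher. Totals without mitochondria-encoded and 18S genes leave no mitochondria-encoded gene to test.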
